A study of Rattus norvegicus with 24 samples.

Results

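Liver constructs perfused for 28 days were compared with constructs perfused for 15 days, to ask how gene expression in the recellularized tissue differed between these times. The members are the 3 constructs labelled day 28 and the 4 constructs labelled day 15, measured on 5 and 5 arrays, out of 19 samples and 24 arrays in the series. The rest of the series is 4 day 2 constructs, 4 isolates of hepatocytes that were never seeded and 4 cadaveric livers. The constructs of both days were rat livers stripped of their cells and reseeded through the portal vein of the caudate lobes with liver cells of adult Sprague Dawley rats. They were perfused with Williams' Medium E that held fetal bovine serum, insulin, dexamethasone, GlutaMax, non-essential amino acids and antibiotics, and neither day received any other treatment. The samples are labelled rat hepatocytes, the cells are not a clone or a line, and the sources used here do not give which animal supplied the cells of which construct, so that time in culture and cell source cannot be told apart where they coincide. RNA was read on Illumina RatRef-12 BeadChips, on which each gene is measured by the brightness of beads that carry its probe, and a level below is the deposited log2 of that brightness after background correction and quantile normalization. A difference of 1 in log2 is a change of 2-fold, and a level can be compared between constructs for a gene but not between genes.

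The liver is made mostly of hepatocytes, which secrete plasma proteins, make bile, handle nitrogen and lipids and break down drugs through cytochrome P450 enzymes. Stellate cells lie between the hepatocytes and the sinusoidal endothelium and, once activated, become myofibroblasts that secrete collagens and other matrix proteins. Kupffer cells are the resident macrophages, and cholangiocytes line the bile ducts. Hepatocytes in culture commonly lose part of their P450 expression, while the other cells that come through an isolation can multiply and lay down matrix. In RNA from whole constructs, fewer cells of a type and less RNA per cell cannot be told apart.

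In a linear model of the 11 constructs of days 2, 15 and 28 (limma, Benjamini-Hochberg adjustment over all genes, called at an adjusted p under 0.05), 760 of 8283 genes tested (9.18%) differed between day 28 and day 15. Of these, 361 (4.36%) were higher on day 28 and 399 (4.82%) were lower. The increases were the larger ones, with a median size of 1.10 in log2 among genes called higher and 0.60 among genes called lower. A change of at least 2-fold was called for 206 genes that were higher (2.49%) and 53 that were lower (0.64%), and of at least 4-fold for 70 and 4. The constructs of the 2 days did not overlap in 742 of the 760 genes called. Over all genes tested, the median difference was -0.06, and day 28 lay wholly above day 15 in 661 genes (7.98%) and wholly below it in 1172 (14.1%). On day 28 arrays 49.4% to 50.7% of the probes were above background (detection p under 0.05), and on day 15 arrays 47.6% to 49.4%.

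**Figure D1:**
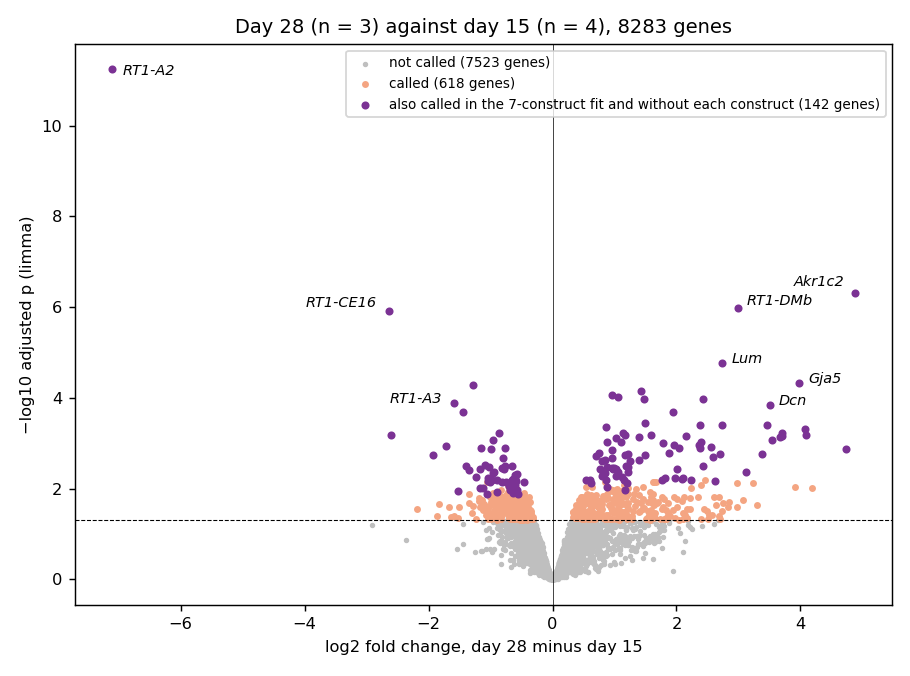
Each point is 1 of the 8283 genes tested, with the day 28 minus day 15 difference in log2 on the x axis and minus log10 of limma's adjusted p on the y axis; colours separate genes not called, genes called in the fit of 11 constructs, and the 142 genes also called in a fit of the 7 constructs alone and with each construct left out in turn. These 142 include RT1-A2, far to the left at -7.10, and Akr1c2, to the right at 4.89.

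The day 15 constructs fell into pairs, and the result depends on them. Day 15 constructs 1 and 2 differed from each other by a root mean square of 0.275 in log2 over all genes, and constructs 3 and 4 by 0.271, whereas the distances between the pairs were 0.471 to 0.610. The 3 day 28 constructs lay 0.324 to 0.399 from each other. They lay 0.413 to 0.471 from day 15 constructs 1 and 2, and 0.654 to 0.838 from day 15 constructs 3 and 4. At 2-fold or more, 38 genes separated day 15 construct 3 from construct 4, and 676 to 959 separated construct 4 from a day 28 construct. Arrays hybridised again from the same construct differed by 0.168 to 0.208. The first principal component, with 67.2% of the variance among the 7 constructs, placed the day 28 constructs at 31.8, 20.7 and 20.7, day 15 constructs 1 and 2 at -0.76 and 4.87, and day 15 constructs 3 and 4 at -35.1 and -42.3.

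**Figure D2:**
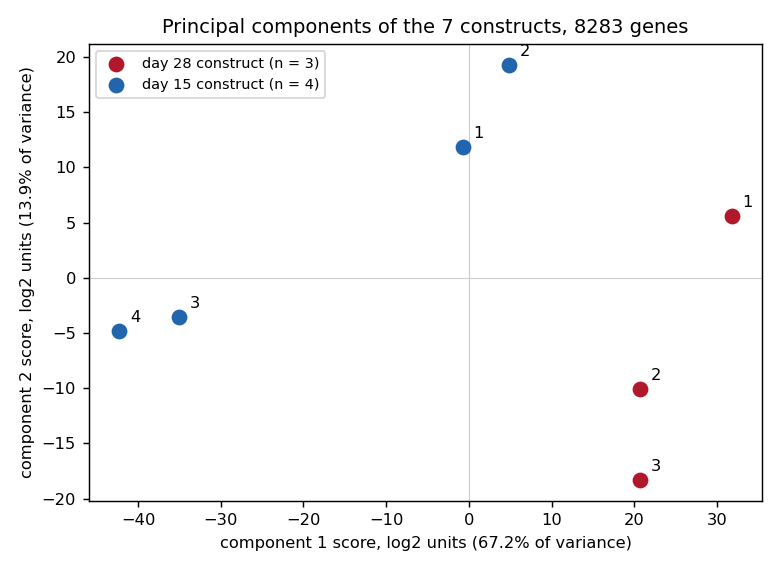
Scores of the 3 day 28 and 4 day 15 constructs on the first (67.2% of variance) and second (13.9%) principal components of the 8283 genes, 1 numbered point per construct. Day 15 constructs 3 and 4 lie at -35.1 and -42.3 on the first component, and constructs 1 and 2 lie near 0, between them and day 28.

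The number of genes called moved with the constructs in the fit. It was 269 without day 28 construct 1, 445 without day 28 construct 2 and 370 without day 28 construct 3, and it was 291 without day 15 construct 3 and 354 without construct 4. Without day 15 construct 2 it was 1242, and without construct 1 it was 797. A fit of the 7 constructs of the 2 days alone, which cannot borrow the day 2 constructs' spread, called 179 genes, of which 173 were among the 760. Of the 760 genes, 188 were called whichever of the 7 constructs was left out, and 142 (86 higher and 56 lower) were called there and in the 7-construct fit too; these are referred to below as called in every fit, which does not count the settings that left out a pair of constructs. Of the 122 called genes named by the rule, 71 lost their call without at least 1 construct, 66 of them without day 28 construct 1, 45 without day 28 construct 2, 54 without day 28 construct 3, 11, 2, 58 and 50 without day 15 constructs 1 to 4, and a gene named below without that remark was not called in every fit. With day 15 constructs 3 and 4 both left out, 233 genes were called (168 higher and 65 lower), and with constructs 1 and 2 both left out, 1841 (823 higher and 1018 lower), settings chosen after the values of the constructs were seen. No scan date or chip number is given in the sources used here.

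**Figure D3:**
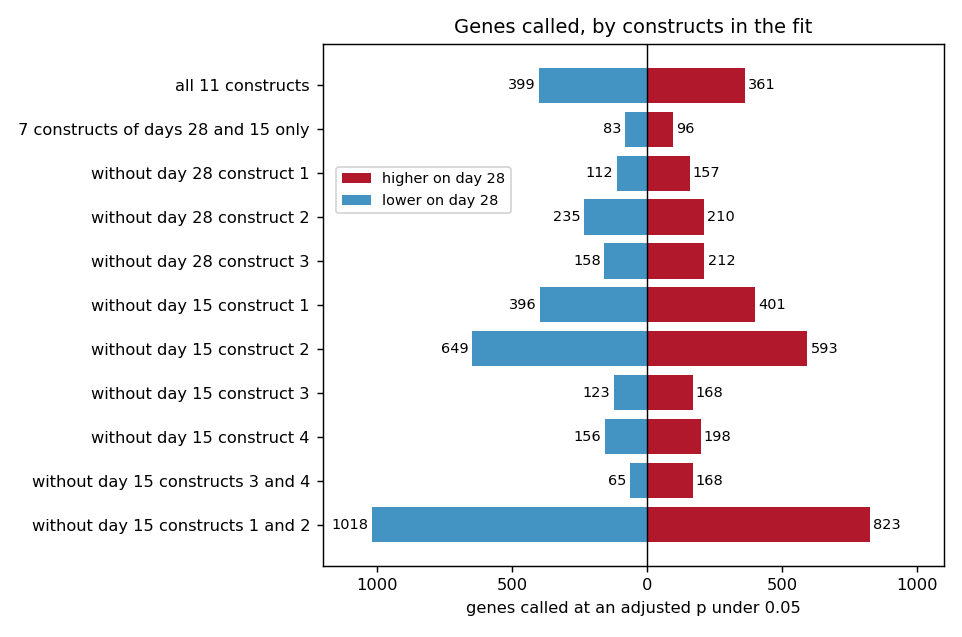
Bars give the genes called higher (right) and lower (left) on day 28 at an adjusted p under 0.05, for the fit of all 11 constructs and for fits on fewer constructs, with the count printed at each bar. The counts run from 65 lower and 168 higher without day 15 constructs 3 and 4 to 1018 lower and 823 higher without day 15 constructs 1 and 2.

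The single largest difference was in a class I gene of the major histocompatibility complex. Class I molecules sit on the surface of nearly all cells and present peptides from inside the cell to CD8 T cells, held there by beta-2 microglobulin, and in the rat they are encoded in the RT1 region of chromosome 20, whose gene content and sequence vary between animals. Of 19 class I genes tested, a set put together after these values were seen, 3 were called lower on day 28, against 4.82% of all genes, and 0 higher. The 3 promoters are shown because they carry the shared Y-box-like motif CTGATTGG, printed in capitals as its reverse complement CCAATCAG, within the 120 bases before the start of each gene in RefSeq (GRCr8), at chr20:4872751-4872870 on the plus strand for RT1-A2, chr20:4849331-4849450 on the plus strand for RT1-A3 and chr20:3265444-3265563 on the minus strand for RT1-CE16.
RT1-A2: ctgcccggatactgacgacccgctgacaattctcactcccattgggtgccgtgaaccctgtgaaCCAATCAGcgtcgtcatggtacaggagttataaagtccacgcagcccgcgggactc
RT1-A3: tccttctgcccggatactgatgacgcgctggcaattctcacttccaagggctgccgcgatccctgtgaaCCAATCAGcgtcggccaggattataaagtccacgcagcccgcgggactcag
RT1-CE16: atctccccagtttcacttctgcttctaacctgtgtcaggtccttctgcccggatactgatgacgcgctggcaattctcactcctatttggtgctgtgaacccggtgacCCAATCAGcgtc
On either strand, CTGATTGG occurs in 710 of 33469 RefSeq windows of this length (2.12%), in 3 of the 3 class I genes called lower and in 5 of the 15 class I genes not called that have a window. A match is a description of the letters and not of binding. The 3 windows also share stretches outside the motif, so their matches are not independent of each other. A tie between the motif and the decrease was not tested.

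RT1-A2 was at 4.55, 4.52 and 4.55 in the day 28 constructs, against 11.65, 11.43, 11.83 and 11.68 in the day 15 constructs. It was not above background on any of the 5 day 28 arrays and was bright on every day 15 array, which makes it at least 109-fold lower on day 28 (difference -7.10 ± 0.11 SE, limma adjusted p = 5.73e-12). The bound sets the day 15 mean against the lowest level called detected on the day 28 arrays. RT1-CE16 was at 4.38, 4.56 and 4.46 on day 28, against 7.38, 6.80, 7.23 and 7.03 on day 15. It too was undetected on every day 28 array, at least 4.70-fold lower (-2.64 ± 0.14 SE, adjusted p = 1.19e-06). RT1-A3 was at 9.52, 9.87 and 9.51 on day 28, against 11.28, 10.99, 11.55 and 11.05 on day 15, a difference of -1.58 ± 0.14 SE (adjusted p = 0.000132). All 3 were called in every fit, and day 15 constructs 1 and 2 stood with constructs 3 and 4 in each of them.

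The other class I genes were not called. These 16 had a median difference of 0.07, between -1.25 and 0.64, beside -0.14 for all 19 and -0.06 for all genes. RT1-A1 was at 12.42, 12.67 and 12.18 on day 28, against 12.94, 12.62, 13.05 and 12.86 on day 15 (adjusted p = 0.0530). B2m, the gene of beta-2 microglobulin, was close to the top of the scale on both days, at 14.86, 14.86 and 14.79 on day 28 and 14.89, 14.88, 14.89 and 14.80 on day 15 (adjusted p = 0.834).

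The same 3 probes were also split within the groups that were never cultured. RT1-A2 was at 5.05 in cadaveric liver 3 and at 10.89 to 11.68 in the other 3 livers, and it was at 4.60 in isolate 2 and at 10.82 to 11.87 in the other 3 isolates. RT1-CE16 was at 4.57 and 4.84 in livers 4 and 3, against 7.16 and 7.85 in livers 2 and 1. In the isolates it was at 4.59 and 4.45 in 1 and 2, against 7.88 and 7.47 in 3 and 4. RT1-A3 was at 9.49 and 10.00 in isolates 2 and 1, against 11.15 and 11.24 in isolates 3 and 4. Each probe thus had, among samples that had spent no time on a matrix, a low level near that of day 28 and a high level near that of day 15. The day 2 constructs were at the high level, at 11.87 to 12.13 for RT1-A2 and 11.50 to 11.66 for RT1-A3. Class I genes have near-identical copies and many alleles, so which copy or allele a probe reads is uncertain, and time in culture and the animals that supplied the cells cannot be told apart for these genes.

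This kind of spread was looked for in the other genes. Among the 259 genes called with at least a 2-fold change, the range over the 4 livers reached the day 28 minus day 15 difference in 16, the range over the 4 isolates in 16, and neither did in 234. Among the 10 of them with the lowest adjusted p, a set chosen after the values were seen, 1 or both of these ranges reached it in 5. They were RT1-A2, RT1-CE16, Akr1c2, Wnt4 and Mmadhc.

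A pair of class II genes rose. Class II molecules are carried by macrophages, dendritic cells and B cells, and RT1-DMa and RT1-DMb encode the chains of the DM protein, which helps load peptide on them. Of 10 genes of class II presentation on the array, 4 were above background in enough constructs to be tested. Of these, 2 were called higher, against 4.36% of all genes, and the median was 1.74, against -0.06 for all genes. Ctss and RT1-DOa, with differences of 1.08 and 0.15, were not called. RT1-DMb was at 8.34, 8.73 and 8.99 on day 28, against 5.96, 5.57, 5.71 and 5.55 on day 15, a difference of 2.99 ± 0.15 SE (adjusted p = 1.06e-06). RT1-DMa was at 9.09, 9.55 and 9.94 on day 28, against 6.81, 6.98, 7.65 and 7.07 on day 15 (2.40 ± 0.29 SE, adjusted p = 0.000916). The 2 days were far apart in both genes, construct 3 of day 28 was the highest in both, and both were called in every fit. RT1-DMb was at 9.28 to 9.99 in the livers, 6.75 to 8.24 in the isolates and 5.17 to 5.32 on day 2.
The promoter of RT1-DMa, chr20:4712336-4712455 on the minus strand of GRCr8, does not hold CTGATTGG. It holds 2 copies of its core ATTGG, shown in capitals. At least 1 copy on either strand is in 6650 of 33469 windows (19.9%), and in 10 of the 15 class I genes not called. Windows with 2 copies were not counted.
RT1-DMa: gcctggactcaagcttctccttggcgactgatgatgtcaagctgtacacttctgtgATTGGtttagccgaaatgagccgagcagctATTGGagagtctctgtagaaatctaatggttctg

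Macrophage markers were measured beside these genes. Of 10 Kupffer cell and macrophage markers on the array, 5 were above background in enough constructs to be tested. Of these, 0 were called higher and 1, Cd14, was called lower, against 4.36% and 4.82% of all genes. The median difference was 1.57, and 4 were higher at an unadjusted p under 0.05. Their mean level was 6.69, 7.53 and 8.33 on day 28, against 6.97, 6.88, 6.50 and 5.72 on day 15, so that construct 1 of day 28 lay within the day 15 range. C1qb, a chain of the complement protein made by tissue macrophages, was at 5.99, 7.32 and 8.26 on day 28, against 5.96, 5.99, 5.39 and 4.55 on day 15 (adjusted p = 0.0718). Vsig4, a receptor of Kupffer cells, was at 6.54, 8.08 and 8.44 on day 28 and 6.78, 6.53, 6.33 and 4.57 on day 15 (adjusted p = 0.142). In construct 1 of day 28, where the mean of these markers was below that of day 15 constructs 1 and 2, RT1-DMb and RT1-DMa were above every day 15 construct, and in constructs 2 and 3 of day 28 these genes and the mean of the markers were all above every day 15 construct. The part of macrophages in the class II difference was not tested.

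The aldo-keto reductases of the Akr1c cluster on chromosome 17, which reduce steroids, bile acid precursors and other carbonyls, were among the enzymes that rose most. Of the 7 Akr1c genes tested, a set likewise put together afterwards, 5 were called higher, against 4.36% of all genes. Akr1c2 was at 9.48, 10.26 and 9.51 on day 28, against 4.45, 4.77, 5.27 and 4.97 on day 15, where it was above background on 3 of 5 arrays (4.89 ± 0.22 SE, adjusted p = 4.93e-07). Too few constructs of days 2 and 15 had Akr1c2 above background for it to be tested without day 28, where it was high. Its adjusted p carries that selection. Akr1c13 was at 10.69, 12.03 and 10.73 on day 28, against 8.46, 8.24, 8.74 and 8.21 on day 15 (2.74 ± 0.28 SE, adjusted p = 0.000399). Akr1c12l1 was at 7.86, 9.28 and 8.12 on day 28, against 6.14, 5.99, 6.43 and 5.62 on day 15 (2.37 ± 0.30 SE, adjusted p = 0.00125). Construct 2 of day 28 was the highest in all 3 genes, and the 4 day 15 constructs lay close together. Akr1c15 was undetected on every day 15 array and rose at least 1.39-fold on day 28 (adjusted p = 8.72e-05). It could not enter the test through day 15, the day on which it was lower. Akr1c19 was higher by 1.36 (adjusted p = 0.0199). Akr1c12 and Akr1c14 were not called, with differences of 0.20 (adjusted p = 0.739) and -0.39 (adjusted p = 0.167). Akr1c2, Akr1c13, Akr1c12l1 and Akr1c15 were called in every fit. These genes are close in sequence, so their probes may share signal.

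Akr1c2, Akr1c13 and Akr1c12l1 also differed among the isolated hepatocytes. Akr1c2 was at 10.69 and 10.14 in isolates 1 and 2, against 5.61 and 5.38 in isolates 3 and 4, and was at 4.71 to 5.68 in the livers. Akr1c13 was at 11.24 and 11.50 in isolates 1 and 2, against 9.79 and 9.50 in isolates 3 and 4. Akr1c12l1 was at 9.16 and 9.37 in isolates 1 and 2, against 7.29 and 7.39 in isolates 3 and 4. All 3 genes were thus high in the same isolates. Time in culture and the animals that supplied the cells cannot be told apart for these genes either. A wider list held aldo-keto reductases and targets of NRF2, a transcription factor that answers oxidants. In it 6 of 31 genes were called higher and 0 lower, against 4.36% and 4.82% of all genes, with a median of -0.03. Beside the Akr1c genes the sixth was Cbr3, a carbonyl reductase, higher by 1.80 (adjusted p = 0.0166).

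Drug-metabolising P450 genes went in both directions. Of 47 tested, 4 were called higher and 5 lower, against 4.36% and 4.82% of all genes, with a median of 0.03. Cyp2e1, which oxidises ethanol and other small molecules, was at 10.56, 11.37 and 10.83 on day 28, against 7.87, 7.22, 7.58 and 6.22 on day 15 (3.70 ± 0.41 SE, adjusted p = 0.000603). Cyp3a2, of the family that handles many drugs and is inducible by dexamethasone, was at 12.62, 13.09 and 13.36 on day 28, against 10.86, 10.61, 10.11 and 10.12 on day 15 (2.60 ± 0.36 SE, adjusted p = 0.00206). No day 28 construct overlapped a day 15 construct in either gene, and day 28 lay wholly above day 15 in 7.98% of all genes. Cyp2f4 was at 6.40, 6.83 and 6.57 on day 28, against 7.39, 7.62, 8.08 and 8.22 on day 15 (-1.23 ± 0.20 SE, adjusted p = 0.00551). These 3 were called in every fit. Set against liver, they do not line up: Cyp2e1 was at 14.53 to 14.81 in the livers, above every day 28 construct, and Cyp3a2 was at 4.47 to 5.76, below every construct of either day. In the fits with 1 construct left out, 2 to 6 P450 genes were called higher and 1 to 8 lower.

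Others were less firm. Cyp2b3 was higher by 1.02 (adjusted p = 0.029) and Cyp7b1, an oxysterol hydroxylase, by 1.87 (adjusted p = 0.0342), and Cyp4v3 fell by 0.77 (adjusted p = 0.0266). Cyp2c7, a female-predominant form in adult rats, was at 7.51, 6.46 and 7.46 on day 28, against 8.15, 8.45, 11.56 and 12.09 on day 15, and was not called (-2.92 ± 0.89 SE, adjusted p = 0.0644). Its day 15 levels divided into 1 and 2 against 3 and 4. Nr1i3, the nuclear receptor CAR that drives several P450 genes, was at 6.36, 6.86 and 6.82 on day 28, against 5.64, 5.89, 5.74 and 5.98 on day 15 (0.87 ± 0.16 SE, adjusted p = 0.00906), in every fit. In the list of hepatocyte transcription factors and nuclear receptors, 4 of 26 were called higher and 2 lower, with a median of -0.18. Of all genes, 4.36% were called higher and 4.82% lower. Phase II enzymes, which conjugate drugs for excretion, held 2 higher and 4 lower of 37, with a median of -0.24. With 1 construct left out, 0 to 11 of them were called lower, 11 of them without day 15 construct 2, and the fit of the 7 constructs alone called 0 lower.

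**Figure D4:**
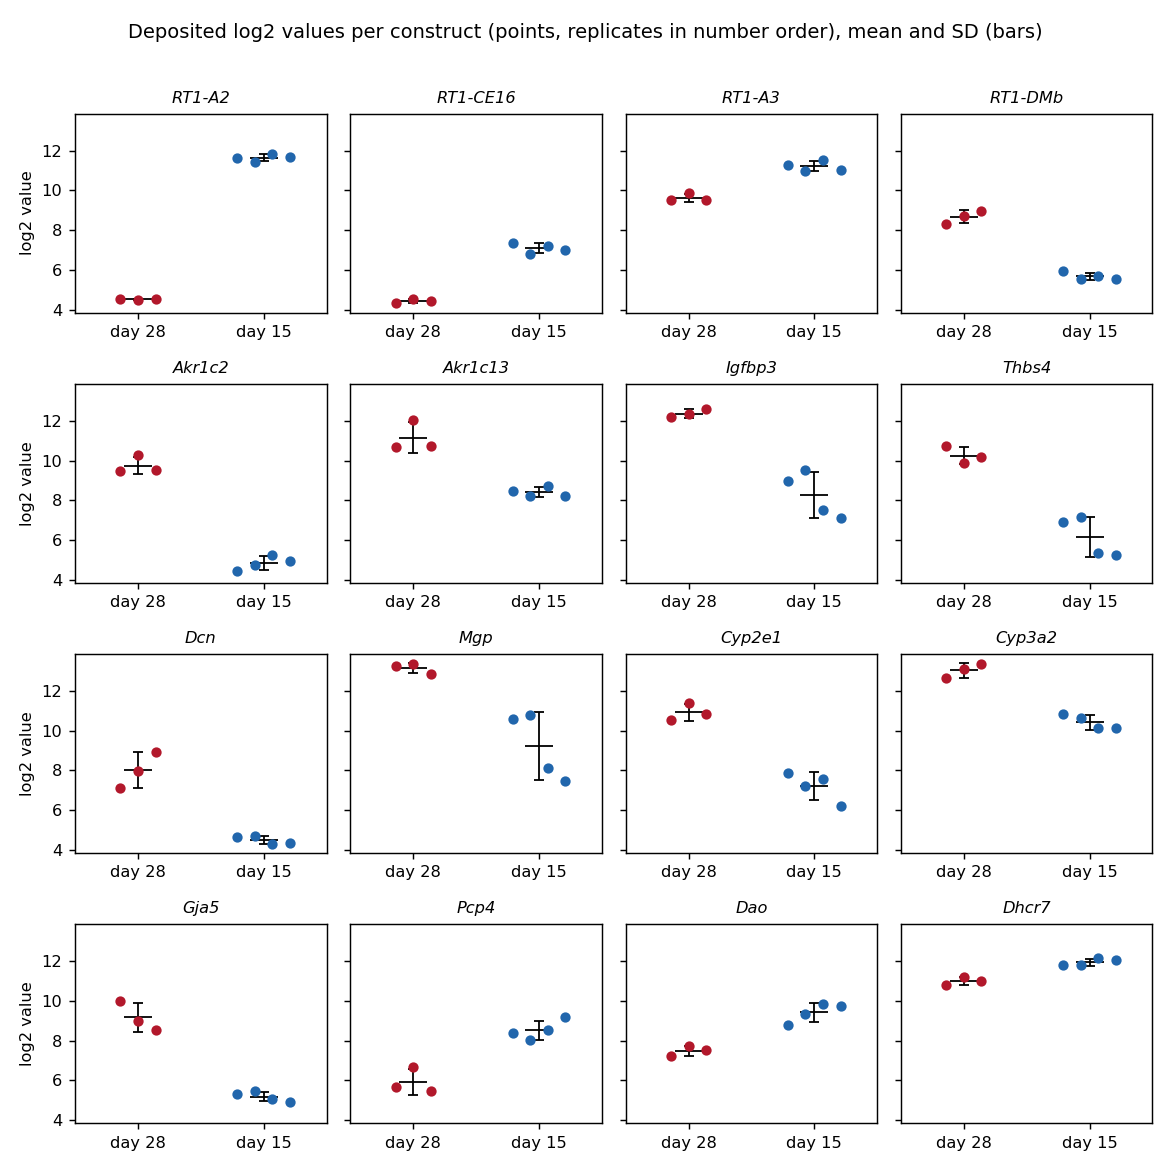
Levels (deposited log2) of 16 named genes in each construct, day 28 (n = 3) left and day 15 (n = 4) right in each panel, with the mean and SD; all panels share 1 vertical scale. In RT1-A2 the groups stand at 4.52 to 4.55 on day 28 and 11.43 to 11.83 on day 15, while in Mgp and Igfbp3 the day 15 points are split into an upper and a lower pair.

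Many matrix genes rose, and how many depended on day 15 constructs 3 and 4. Proteoglycans and elastic fiber proteins had 6 of 15 genes called higher and 1 lower, against 4.36% and 4.82% of all genes (median 1.78, against -0.06 for all genes). Collagen processing enzymes had 5 higher and 1 lower of 18 (median 1.21), fibrillar and network collagens 2 higher and 1 lower of 12 (median 1.32), and matricellular proteins 4 higher and 0 lower of 15 (median 0.55). The mean level of the collagens was 10.27, 10.01 and 9.77 on day 28, against 9.63, 10.10, 7.94 and 7.62 on day 15. Day 15 constructs 1 and 2 were near or within the day 28 range and constructs 3 and 4 were below it. Without constructs 3 and 4, the median of the collagens was -0.06 with 2 called higher, and without constructs 1 and 2 it was 2.75 with 9 called higher. The corresponding medians were 0.70 and 3.09 for the proteoglycans (5 and 12 called higher), 0.34 and 2.05 for the collagen processing enzymes and 0.05 and 1.54 for the matricellular proteins. With 1 construct left out, 1 to 6 collagens, 2 to 10 proteoglycans and 2 to 12 collagen processing enzymes were called higher, the most in each list without day 15 construct 2.

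Several matrix genes differed from all 4 day 15 constructs. Dcn, the small proteoglycan decorin that coats collagen fibrils, was at 7.11, 8.0 and 8.95 on day 28, against 4.66, 4.71, 4.33 and 4.37 on day 15. It was undetected on every day 15 and day 2 array, so it entered the test only through the day 28 constructs, where it was high. It was at least 8.60-fold higher on day 28 (3.50 ± 0.32 SE), and its level in the livers was 8.54 to 9.03. Its adjusted p in limma, 0.000147, carries that selection. Lum, the related proteoglycan lumican, was at 7.52, 7.63 and 7.83 on day 28, against 5.30, 5.24, 4.59 and 4.54 on day 15 (2.74 ± 0.18 SE, adjusted p = 1.70e-05). It was above background in day 15 constructs 1 and 2 only and on no day 2 array. Lum too was thus tested only because of the day 28 constructs, and its adjusted p carries the same selection. Col14a1, a collagen that binds to the surface of fibrils, was at 8.57, 9.37 and 9.36 on day 28, against 6.13, 6.56, 4.94 and 4.63 on day 15 (3.53 ± 0.42 SE, adjusted p = 0.000863). Thbs4, a thrombospondin, was at 10.71, 9.87 and 10.16 on day 28, against 6.91, 7.17, 5.35 and 5.27 on day 15 (4.07 ± 0.44 SE, adjusted p = 0.00049). In Lum, Col14a1 and Thbs4 the pair of day 15 constructs 3 and 4 was again the lower one, but constructs 1 and 2 were also below every day 28 construct. P4ha2, a subunit of the enzyme that hydroxylates collagen prolines, was at 9.46, 9.66 and 10.46 on day 28, against 8.15, 8.46, 6.94 and 6.93 on day 15 (2.24 ± 0.37 SE, adjusted p = 0.00631). These 5 genes and Adamts9, a matrix protease that was higher by 0.97 (adjusted p = 0.00211), were called in every fit.

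Mgp, matrix Gla protein, an inhibitor of calcification, was at 13.26, 13.34 and 12.86 on day 28, against 10.59, 10.79, 8.10 and 7.46 on day 15 (3.92 ± 0.70 SE, adjusted p = 0.00911, but 0.0536 in the 7-construct fit). Ogn, osteoglycin, was higher by 3.30 (adjusted p = 0.0232) and was lost without day 28 construct 1 (adjusted p = 0.0935), day 28 construct 2 or day 15 construct 3. Emilin1, an elastic fiber protein, was higher by 3.08 (adjusted p = 0.0177) and was lost without day 28 construct 1, day 28 construct 3 or day 15 construct 3. Bgn (2.05) and Col6a1 (2.69) were called close to the threshold, at adjusted p of 0.0497 and 0.0411. Fbln1, a fibulin, fell by 0.93. Bmp1, a protease that trims procollagen, fell by 0.52, and Col18a1 fell by 0.47. Reck, called higher at 2.61, had a further probe on the array with a difference of 0.03.

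The main fibrillar collagens were not called. Col1a1 was at 8.75, 8.45 and 7.78 on day 28, against 8.33, 9.41, 5.0 and 5.46 on day 15 (1.28 ± 0.87 SE, adjusted p = 0.384). Col3a1 was at 11.13, 10.67 and 10.20 on day 28, against 10.22, 10.65, 8.06 and 7.53 on day 15 (adjusted p = 0.147). Both genes were as high in day 15 construct 2 as in a day 28 construct. Contractile and smooth muscle genes held 0 higher and 1 lower of 18, against 4.36% and 4.82% of all genes (median 0.13). The 1 called was Tpm1, which fell by 0.47 and lost its call without any 1 of the 7 constructs. Of this list 2 were called lower without day 15 constructs 3 and 4 (median -0.13), and 8 higher without constructs 1 and 2 (median 0.76). Of 20 matrix proteases and inhibitors 3 were called higher and 1 lower (median 0.27), and of 13 integrins and laminins 2 were called higher (median 0.42). Without day 15 construct 2 these higher calls numbered 10 and 6, and without day 28 construct 1 they numbered 1 and 0.

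Some growth factors, receptors and their regulators also rose. Among TGF beta and BMP signaling genes, 7 of 32 were called higher and 0 lower, against 4.36% and 4.82% of all genes (median 0.54). Smad6, an inhibitory Smad that BMP signals induce, was at 8.0, 7.97 and 8.08 on day 28, against 6.89, 6.32, 5.79 and 5.53 on day 15 (1.88 ± 0.25 SE, adjusted p = 0.00161). Bmp3, a BMP antagonist, was at 7.73, 7.61 and 8.09 on day 28, against 6.98, 6.83, 6.78 and 6.78 on day 15 (0.97 ± 0.13 SE, adjusted p = 0.00144). Bmp6, the ligand through which liver endothelium regulates hepcidin, was at 6.04, 5.94 and 5.76 on day 28, against 5.33, 5.26, 4.77 and 4.85 on day 15 (0.86 ± 0.14 SE, adjusted p = 0.00659). The 2 days did not overlap in any of these 3 genes, and day 28 lay wholly above day 15 in 7.98% of all genes. The 3 genes and Inha, higher by 0.98, were called in every fit. The list's median was 0.12 without day 15 constructs 3 and 4, and 0.55 without constructs 1 and 2, and its higher calls ranged from 5 to 15 with 1 construct left out, 15 of them without day 15 construct 2.

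In the IGF axis, 3 of 15 genes were called higher and 1 lower, against 4.36% and 4.82% of all genes (median 0.03). Igfbp3, which carries IGF in serum and is made in liver by non-parenchymal cells, was at 12.17, 12.31 and 12.59 on day 28, against 8.95, 9.52, 7.53 and 7.09 on day 15 (4.08 ± 0.46 SE, adjusted p = 0.000661, called in every fit). All 3 day 28 constructs were above the livers, which were at 10.01 to 11.04. Igfbp2, a binding protein made by hepatocytes, was at 5.89, 5.69 and 5.70 on day 28, against 6.40, 6.77, 8.15 and 8.08 on day 15 (-1.59 ± 0.42 SE, adjusted p = 0.0411), and was lost without any 1 of the day 28 constructs or of day 15 constructs 3 and 4, where the adjusted p reached 0.107. Pappa, a protease that cuts IGF-binding proteins, was higher by 1.94 (adjusted p = 0.0303).

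Of 23 PDGF, FGF and VEGF signaling genes, 6 were called higher and 1 lower, against 4.36% and 4.82% of all genes (median 0.30). With 1 construct left out, 3 to 8 were called higher. Pdgfra, a PDGF receptor of fibroblasts and stellate cells, was at 6.89, 7.73 and 6.87 on day 28, against 5.43, 5.31, 4.59 and 4.71 on day 15 (2.15 ± 0.25 SE, adjusted p = 0.000679). Angpt1, the ligand of the endothelial receptor Tie2, was at 7.52, 7.64 and 6.91 on day 28, against 6.08, 6.06, 5.05 and 5.16 on day 15 (1.77 ± 0.30 SE, adjusted p = 0.0066). Hgf, a mitogen of hepatocytes made by stellate cells, was at 6.06, 7.0 and 6.19 on day 28, against 5.41, 5.30, 5.01 and 5.29 on day 15 (1.16 ± 0.22 SE, adjusted p = 0.0105). These 3 were called in every fit, and every day 28 construct was above every day 15 construct, which held for 7.98% of all genes. Without day 15 constructs 3 and 4 Hgf was not called (limma adjusted p = 0.0679). Among chemokines and cytokines 2 of 21 were called higher, Cxcl12 by 2.98 and Csf1 by 1.54, and both were lost without any 1 of the day 28 constructs or of day 15 constructs 3 and 4. Wnt4, a secreted Wnt ligand outside the naming rule and chosen after its values were seen, was at 7.08, 7.11 and 7.17 on day 28, against 5.49, 5.82, 5.83 and 5.60 on day 15 (adjusted p = 7.05e-05) and was called in every fit, although its range over the livers was 1.47 and over the isolates 1.71, beside a difference of 1.43.

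The rest of the 15 largest increases belonged to several families. Prl8a2, a member of the prolactin family known from the rodent decidua, was at 10.27, 11.14 and 11.82 on day 28, against 6.50, 8.21, 5.66 and 4.96 on day 15 (4.74 ± 0.61 SE, adjusted p = 0.00135). Gja5, the connexin of arterial endothelium, was at 9.96, 9.0 and 8.54 on day 28, against 5.30, 5.45, 5.09 and 4.91 on day 15 (3.98 ± 0.30 SE, adjusted p = 4.76e-05), and was at 5.63 to 6.01 in the livers. Gja5 was above every liver in all 3 day 28 constructs and below every liver in all 4 day 15 constructs, and like Prl8a2 it was called in every fit. Tmeff2, Pbsn, Zcchc12 and Slit3 were higher by 3.70, 3.67, 3.45 and 3.38 and were called in every fit. Rgs4 was higher by 4.19 (adjusted p = 0.00986, but 0.0583 in the 7-construct fit).

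The 15 largest decreases included Dao, Slc3a1 and Bhmt. Dao, D-amino acid oxidase, was at 7.22, 7.71 and 7.54 on day 28, against 8.78, 9.33, 9.83 and 9.72 on day 15 (-1.93 ± 0.26 SE, adjusted p = 0.00184). Slc3a1, a subunit of the cystine transporter, was at 5.09, 4.72 and 4.68 on day 28, where it was above background on 2 of 5 arrays, against 6.29, 6.84, 6.66 and 6.39 on day 15 (-1.72 ± 0.22 SE, adjusted p = 0.00115). Bhmt, which remethylates homocysteine with betaine, was at 11.13, 11.19 and 11.02 on day 28, against 12.17, 12.23, 13.22 and 12.91 on day 15 (-1.52 ± 0.29 SE, adjusted p = 0.0114). All 3 were called in every fit and fell in each day 28 construct below each day 15 construct, which held for 14.1% of all genes. Without day 15 constructs 3 and 4 Bhmt was not called (limma adjusted p = 0.0584). In the list of urea cycle and amino acid catabolism, which holds Bhmt but not Dao or Slc3a1, 1 of 33 genes was called higher and 4 lower, against 4.36% and 4.82% of all genes (median -0.26), and 1 to 7 were called lower with 1 construct left out. In it Asl fell by 0.70 and Sdsl fell by 0.89, both lost without day 28 construct 1 (adjusted p = 0.0629 and 0.0710). Glud1, glutamate dehydrogenase, was higher by 0.53.

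Pcp4, a small calmodulin-binding protein, was at 5.65, 6.67 and 5.45 on day 28, against 8.39, 8.01, 8.53 and 9.16 on day 15 (-2.60 ± 0.30 SE, adjusted p = 0.000661). Socs5, a suppressor of cytokine signaling, was at 8.18, 7.85 and 7.77 on day 28, against 9.49, 9.65, 9.12 and 9.24 on day 15 (-1.44 ± 0.14 SE, adjusted p = 0.000203). Every day 28 construct was below every day 15 construct in both genes, which held for 14.1% of all genes, and both were called in every fit. Mmadhc, a cobalamin-handling protein outside the rule and chosen after its values were seen, was at 10.42, 10.56 and 10.56 on day 28, against 11.90, 11.56, 11.83 and 11.89 on day 15 (adjusted p = 5.17e-05), was called in every fit and had a range of 1.42 over the livers. Tsx, Mettl7b, Apoa2, Cdhr2, Rundc3a and Glyat were lower, with differences of -2.18, -1.83, -1.67, -1.64, -1.53 and -1.51, and each lost its call without 4 or 5 of the 7 constructs in turn.

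In the cholesterol synthesis list every measured difference was below 0. Of 18 genes from HMG-CoA formation to cholesterol, 6 were called lower and 0 higher, against 4.82% of all genes lower, and the median was -0.52. Dhcr7, which makes cholesterol from 7-dehydrocholesterol in the last step, was at 10.79, 11.19 and 10.98 on day 28, against 11.77, 11.80, 12.14 and 12.03 on day 15 (-0.95 ± 0.15 SE, adjusted p = 0.0044, called in every fit). Mvd was at 8.76, 8.97 and 8.96 on day 28, against 9.48, 9.39, 9.41 and 9.71 on day 15 (adjusted p = 0.0139). Msmo1 was at 10.93, 11.27 and 11.23 on day 28, against 11.60, 11.74, 11.68 and 11.68 on day 15 (adjusted p = 0.0154). Day 28 lay below day 15 without overlap in these 3 genes and in 11 of the 18 in all, against 14.1% of all genes. The count of calls ranged from 1 to 8 with 1 construct left out, and Dhcr7 was the 1 gene called in every fit. The median was -0.40 without day 15 constructs 3 and 4 (1 called) and -0.55 without constructs 1 and 2 (9 called).

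Of 18 fatty acid synthesis genes, 3 were called lower and 0 higher (median -0.39). They were Fads1 (-0.99), Acly (-0.66) and Elovl5 (-0.52), and the count was 0 to 4 with 1 construct left out. Apolipoproteins and lipases had 2 higher, Lpl by 2.64 and Pon1 by 1.43, and 2 lower, Apoa2 and Apom, of 20. Glycolysis and the hypoxia response had 5 of 25 called higher and 0 lower (median 0.53), among them Eno2 (2.17), Adm (1.28) and Pkm, whose probe was undetected on every day 15 array and at least 1.54-fold higher (adjusted p = 0.000759). Pkm could not enter the test through day 15, the day on which it was lower. It was the 1 gene of this list called in every fit, and 2 to 9 were called higher with 1 construct left out. Bile acid synthesis and transport had 2 higher of 18, Abcg5 and Cyp7b1. Acute phase, complement and coagulation had 3 higher and 2 lower of 55, shares near those of all genes (4.36% and 4.82%). Of these, Cfd, complement factor D, was higher by 2.63 (adjusted p = 0.00679) and was called in every fit. Without day 15 constructs 3 and 4 Cfd was not called (limma adjusted p = 0.0503).

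Few genes of the basic machinery were called, beside 4.36% of all genes called higher and 4.82% called lower. Of 55 respiratory chain and ATP synthase genes and 34 proteasome subunits, limma called 0 in either direction (medians -0.07 and -0.12), with 5 and 4 lower at an unadjusted p under 0.05 and 1 and 0 called by an ordinary linear model, and of 58 ribosomal proteins 1 was called higher (median 0.09). Of 39 cell cycle and DNA replication genes 1 was called, Cdkn2b, an inhibitor of cyclin-dependent kinases, which was undetected on every day 28 array and at least 1.58-fold lower (adjusted p = 0.0013) and was called in every fit. Cdkn2b could not enter the test through day 28, the day on which it was lower. Of 30 interferon response genes 1 was called higher, Ifi44 by 0.95 (adjusted p = 0.0309), and it was lost without day 28 construct 1 (adjusted p = 0.112), day 28 construct 2 or day 15 construct 3.

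**Figure D5:**
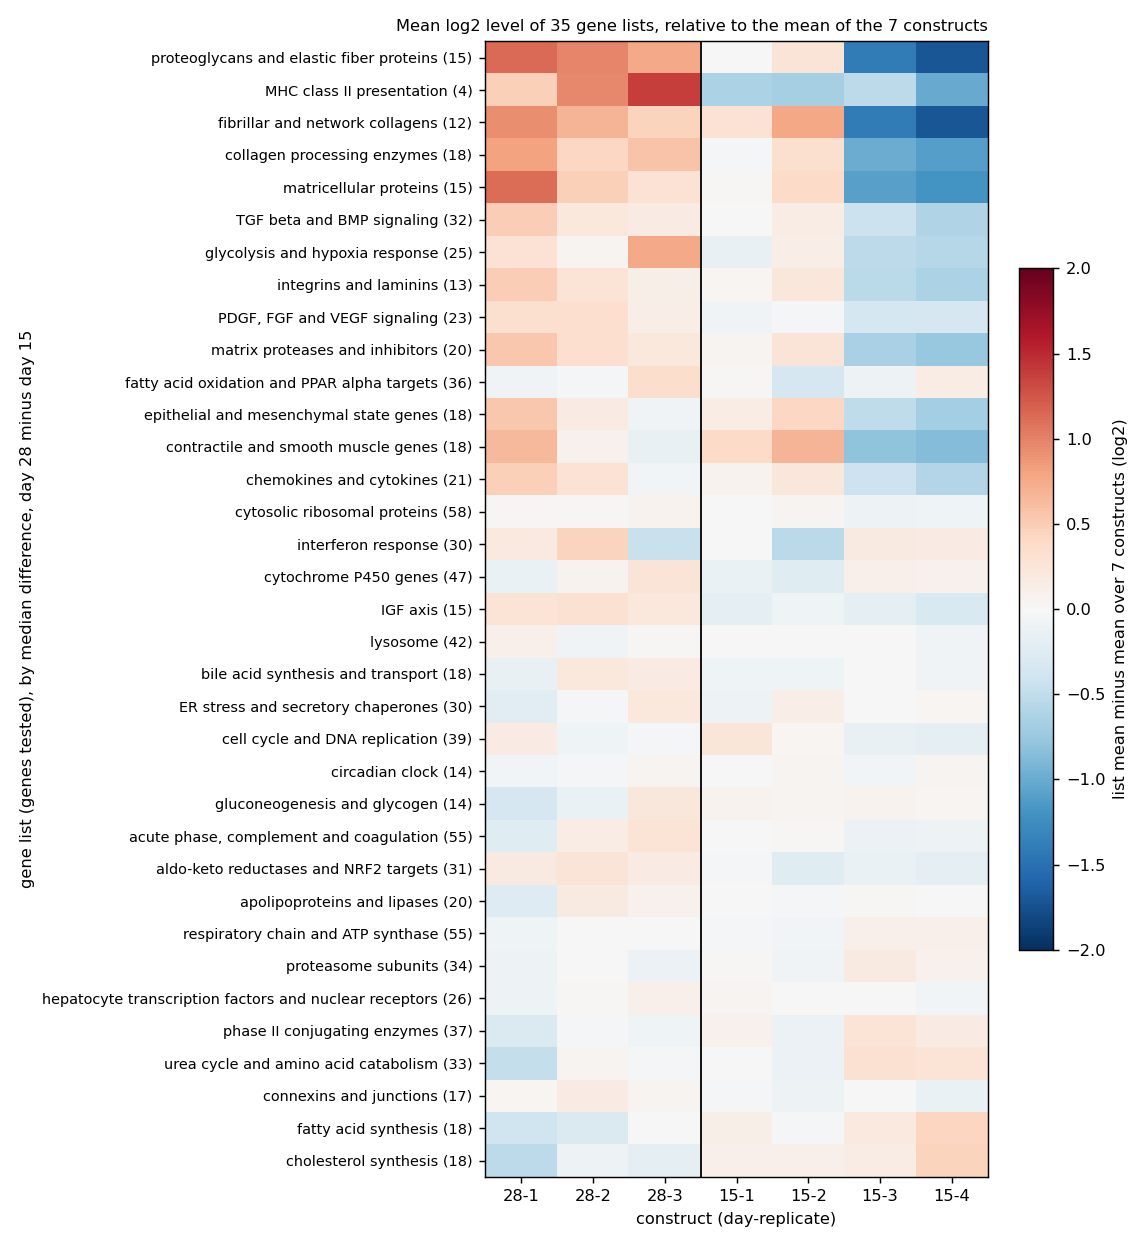
Mean level of each of 35 gene lists (down) in each construct (across, day 28 left and day 15 right), as the log2 difference from the list's mean over the 7 constructs, on a scale of -2 to 2. The collagen, collagen processing and proteoglycan rows are low in day 15 constructs 3 and 4 rather than in all 4 day 15 constructs, while the row of cholesterol synthesis is higher in all 4 day 15 constructs.

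The labelled cell type was checked against its markers. Of 10 hepatocyte markers limma called 0, with 2 lower at an unadjusted p under 0.05 and a mean level of 12.87, 13.11 and 13.10 on day 28 and 13.12, 13.03, 13.29 and 13.21 on day 15. Albumin (Alb) was at 14.66, 14.79 and 14.72 on day 28, against 14.78, 14.77, 14.88 and 14.69 on day 15, a difference of -0.05 (adjusted p = 0.728). The groups overlapped, but Alb lay near the brightest level of the arrays, 14.90, where differences are compressed, and so did Ttr, Tf, Ahsg, Serpina1 and Fgb. The other 4 markers, none of them called, had differences of -0.52 for Ass1, -0.43 for Hnf4a, -0.36 for Tat and -0.12 for Cps1. Hnf4a, the hepatocyte transcription factor, was at 5.52, 5.78 and 6.0 on day 28 and 6.42, 5.84, 6.50 and 6.04 on day 15 (adjusted p = 0.173).

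Markers of other liver cells were read on both days, but not all were above background on day 15. Dcn was above it on 0 of the 5 day 15 arrays, Dlk1 on 1 and Wt1 on 2, and all 3 genes were above it on the 5 day 28 arrays. No day 2 array had any of them above it. All 3 genes thus entered the test only with the day 28 constructs, where they were high, and their adjusted p-values carry that selection. Of 10 stellate cell and myofibroblast markers 3 were called higher (Dcn, Lum and Reln) and 0 lower, against 4.36% and 4.82% of all genes. Their median was 1.49, and their mean level was 10.11, 9.93 and 9.79 on day 28, against 9.09, 9.49, 7.54 and 7.25 on day 15. These levels followed the division of the day 15 constructs seen in the matrix genes, and their part in the matrix differences was not tested. Of 8 endothelial markers on the array, 3 were above background in enough constructs to be tested. Of these, 2 were called higher, Gja5 by 3.98 and Egfl7 by 0.74. The mean of the 3 was 7.06, 6.55 and 6.69 on day 28, against 5.27, 5.34, 5.11 and 5.15 on day 15, a difference that came mostly from Gja5. Egfl7 lost its call without 4 of the 7 constructs in turn. Like Dlk1 and Wt1, Egfl7 entered the test only with the day 28 constructs. Tie1, the other one, was at 5.43, 5.36 and 5.37 on day 28, against 5.34, 5.33, 5.54 and 5.61 on day 15. Wt1, a mesothelial transcription factor, was at 6.03, 5.81 and 6.02 on day 28, against 4.80, 5.13, 4.77 and 4.54 on day 15 (1.14 ± 0.13 SE, adjusted p = 0.00058), in every fit, and the other 2 mesothelial markers were not called. Dlk1, which marks hepatoblasts and progenitors, was at 6.07, 6.84 and 6.87 on day 28, against 4.76, 4.81, 4.50 and 4.56 on day 15 (1.94 ± 0.18 SE, adjusted p = 0.000203), in every fit, while Epcam, of the same list, fell by 0.60 (adjusted p = 0.0450). None of 6 smooth muscle, 2 T and NK cell, 1 B cell, 1 neutrophil and 2 erythroid markers was called, and of 3 adipocyte markers Cfd was.

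The 10 genes with the largest SD among the day 15 constructs are described by their levels, and none of them was called, which a choice by spread makes likely. Ubd, a ubiquitin-like protein that cytokines induce, was at 10.78, 11.65 and 10.47 on day 28, against 12.55, 12.23, 6.68 and 4.63 on day 15. Postn, the matricellular protein periostin, was at 12.55, 9.20 and 9.05 on day 28, against 11.39, 12.80, 8.06 and 8.45 on day 15. Tnnt2, the cardiac troponin T, was at 14.21, 13.61 and 13.04 on day 28, against 13.86, 13.62, 11.24 and 9.78 on day 15. In each of them day 15 constructs 1 and 2 were high and 3 and 4 were low. In Ubd all 3 day 28 constructs lay between the pairs, and in Postn day 28 construct 1 lay with day 15 constructs 1 and 2 while constructs 2 and 3 lay nearer to day 15 constructs 3 and 4. A1bg, a plasma protein, had the opposite order, at 4.63, 4.60 and 4.52 on day 28, against 5.04, 5.05, 8.12 and 9.59 on day 15. Over all genes tested, the SD was larger among the day 15 constructs in 5061 (61.1%), with a median of 0.144 on day 28 and 0.174 on day 15.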

How the data were processed

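RNA from recellularized rat liver constructs was hybridised to RatRef-12 BeadChips. Per probe, the authors deposited background-corrected, quantile-normalized log2 values from limma (version not given in the sources used here), together with linear bead intensities and detection p-values. The deposited log2 values were used as they stand, and the deposited intensities served as an alternative. The intensity table numbers 14 of 24 arrays otherwise than the sample labels, so its arrays were identified by their values. Technical duplicate arrays were averaged. Of 22523 probes 13793 carried a gene name. A probe was kept if its detection p was under 0.05 on all arrays of at least 3 constructs (11583 probes), and the brightest kept probe stood for each gene (8283 genes). A gene can pass this filter through the day on which it is high. Of the genes called, 22 that were higher were undetected on every day 15 array, and 4 that were lower on every day 28 array. Others, among them Akr1c2, Lum, Dlk1, Wt1 and Egfl7, were detected on some day 15 arrays but passed only with the day 28 constructs counted.

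Day 28 was compared with day 15 by a linear model of the 11 constructs with empirical Bayes moderation (R 4.3.3, limma 3.58.1), and p-values were adjusted by the Benjamini-Hochberg method with a threshold of 0.05. P-values measure the spread between these constructs, since nothing says how many animals supplied the cells, and the number of arrays limits the precision. A fold for a gene undetected in all arrays of a day is a bound against the lowest detected level of those arrays. The genes named are the 15 that rose most and the 15 that fell most among those called without overlap, up to 4 called members per list by adjusted p, the cell type markers, Alb and the 10 with the largest SD on day 15. The 35 gene lists and 12 marker lists, and the comparison itself, were chosen with earlier results of these data known. The procedure was also run on simulated data. Errors there were independent between constructs, without the pairs seen on day 15, so that run does not give the error rate of the calls here. Alternatives covered the normalization, the filter, the probes, the model and each construct left out.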

Additional observations from a re-analysis of the deposited data

Results flagged for a closer look

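The mean level of the cholesterol synthesis list in day 15 construct 4, at 10.61, stood apart from the other 3 day 15 constructs, which were at 10.26 to 10.31. Its gap to the nearest of them was 0.867 of the range of the 4. This was 1 of 208 groups of values examined in this way, and chance flags about 1 in 20 such groups.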

How the results depend on the processing

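The count of genes called (760, 361 higher and 399 lower) depended most on which constructs entered the fit. With 1 construct left out it ranged from 269 (157 higher, 112 lower), without day 28 construct 1, to 1242 (593 higher, 649 lower), without day 15 construct 2. It was 179 (96 higher, 83 lower) in a fit of the 7 constructs alone, which has fewer samples to estimate the spread, and 350 (167 higher, 183 lower) in an ordinary linear model without empirical Bayes moderation. Settings chosen after seeing the data gave 233 (168 higher, 65 lower) without day 15 constructs 3 and 4, and 1841 (823 higher, 1018 lower) without constructs 1 and 2. With the replicate number as a block the count was 347 (195 higher, 152 lower), of which 328 were among the 760. Constructs of the same number on the 2 days correlated at 0.28, -0.28 and 0.23 in their deviations from the day means, and day 28 construct 1 correlated best with day 15 construct 2 (0.49). With so few constructs, and day 15 split into pairs, these correlations cannot show whether any constructs shared a cell source. The main fit took the constructs to share only a number. The other alternatives, on background correction, scaling, filter, probes, technical arrays, array weights, the eBayes trend and the groups fitted, gave 589 to 965. Under the 22 alternatives none of the 122 called genes named by the rule changed sign. Actg2, a smooth muscle actin that was not called (-0.06), was 1.63 without day 15 constructs 1 and 2. The level of the brightest genes, near 14.90, and of probes at background limits how far their differences can be read.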

Other observations

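Probes without a gene name also differed between the days. Of 3126 such probes kept, 106 were higher and 120 lower on day 28 at an adjusted p under 0.05, in a fit over all 11583 kept probes in which 473 were higher and 521 lower. They are not described further here.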
